A study of Mus musculus with 20 samples.

Results

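The response described here is that of control macrophages to an agonist of the liver X receptors. It sets 3 libraries of mouse bone marrow-derived macrophages that were grown with DMSO and then given 2 µM GW3965 for 17 h (DMSO+GW3965, mice 1 to 3) against 4 libraries of macrophages grown with DMSO and left unstimulated (DMSO, mice 1 to 4). These 7 of the 20 libraries of the series were chosen by their labels. Marrow of C57BL/6 mice had been cultured for 7 to 8 days with 15% L929-conditioned medium, which supplies the growth factor M-CSF, and DMSO was present in both groups during that time. The remaining libraries come from cells given LPS and from cells grown with 1 µM SGC0946, an inhibitor of the histone methyltransferase DOT1L. The SGC0946 libraries without agonist (SGC0946, n = 4) and with GW3965 (SGC0946+GW3965, n = 3) are used below to ask where the response of control cells differed. The labels name no separate vehicle control for the 17 h of GW3965.

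Liver X receptors are nuclear receptors that bind oxidised cholesterol derivatives. They sit on DNA as heterodimers with retinoid X receptors, on a pair of hexamers with a short gap (a DR4 repeat), and recruit coactivators when a ligand binds. In macrophages they are known for inducing genes that export cholesterol, genes of fatty acid synthesis through the transcription factor SREBP-1c (made from Srebf1), and for restraining inflammatory genes. GW3965 is a synthetic agonist of both receptor forms.

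A receptor element was looked for upstream of the genes that rose, and the promoters that hold it are printed first because these genes are among the main lipid responses below. They are RefSeq sequences of GRCm38.p6, the 250 bases before the annotated start, written on the gene's strand. Of the 20 genes that rose in the lists on cholesterol efflux and on fatty acid synthesis, 15 had a promoter entry, with 17 promoters among them since Srebf1 has 3 annotated starts. The capitals mark the element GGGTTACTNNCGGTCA, a spaced pair of hexamer-like parts, which here lies on the reverse strand and therefore reads as its complement.

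Abca1, chr4:53159896-53160145: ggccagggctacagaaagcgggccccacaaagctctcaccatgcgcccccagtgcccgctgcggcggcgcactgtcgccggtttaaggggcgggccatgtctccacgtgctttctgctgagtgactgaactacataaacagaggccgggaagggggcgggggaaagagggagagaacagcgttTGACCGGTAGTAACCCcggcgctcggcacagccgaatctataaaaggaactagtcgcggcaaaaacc

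Fasn, chr11:120824548-120824797: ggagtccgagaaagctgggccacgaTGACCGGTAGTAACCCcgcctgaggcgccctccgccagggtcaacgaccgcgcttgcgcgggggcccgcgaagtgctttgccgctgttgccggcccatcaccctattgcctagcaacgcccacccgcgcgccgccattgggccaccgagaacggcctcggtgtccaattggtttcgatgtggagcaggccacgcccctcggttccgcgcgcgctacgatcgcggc

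Srebf1, the third of its annotated starts, chr11:60210472-60210721: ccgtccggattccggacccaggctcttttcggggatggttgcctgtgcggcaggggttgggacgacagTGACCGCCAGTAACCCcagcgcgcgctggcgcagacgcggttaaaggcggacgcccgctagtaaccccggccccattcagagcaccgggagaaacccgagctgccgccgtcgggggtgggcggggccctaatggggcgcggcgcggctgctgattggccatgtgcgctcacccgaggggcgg

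Counted from the start of the promoter entry, the element began 67 bases before that of Abca1, 225 bases before that of Fasn and 182 bases before that of Srebf1. The gene span given below for Abca1 reaches into its printed window, so it uses another start, one that places the element inside the gene. Searched on both strands, it was found in 3 of 32851 RefSeq promoters (0.00913%), and these 3 are the ones printed. A looser form, GGTTACTNNNGGTCA, overlaps the first and occurred in 6 promoters of 5 genes (0.0183%). Both patterns were written after the sequences of risen genes had been read, so their rarity, and that risen genes hold them, is a description of these letters. The consensus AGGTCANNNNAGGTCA with up to 3 mismatches, which the element of Abca1 also meets, was present in 6 of the 17 promoters and in 18.5% of all promoters. The sterol regulatory element TCACNCCAC, searched in the same 250 bases without mismatches, was in none of the 17 and in 1.05% of all promoters. Looser forms of it were not searched. Abcg1, Scd1, Scd2, Lpl and Apoc1 had no promoter entry and are not covered. For contrast, the promoter of Mylip, whose fold change was of similar size, held neither the element nor a DR4 match.

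Mylip, chr13:45389492-45389741: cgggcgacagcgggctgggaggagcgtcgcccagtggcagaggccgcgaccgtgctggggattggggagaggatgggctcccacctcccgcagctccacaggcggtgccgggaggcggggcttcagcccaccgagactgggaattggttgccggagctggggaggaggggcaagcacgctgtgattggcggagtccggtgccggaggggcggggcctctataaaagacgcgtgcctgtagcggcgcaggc

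Over all genes, the part of the transcriptome called after GW3965 depended on the fit, and it was small in the fit on all 20 libraries. Of 12013 genes tested, 306 passed edgeR's quasi-likelihood test at a Benjamini-Hochberg adjusted p under 0.05 (2.55%), of which 162 were higher (1.35%) and 144 lower (1.20%) after GW3965. The change was 2-fold or more in 27 of the higher genes (0.225% of genes tested) and in 20 of the lower ones (0.166%). The median log2 fold change was 0.44 among the higher genes, -0.42 among the lower genes and -0.01 over all genes. Values of the groups did not overlap for all 162 higher genes and for 131 of the 144 lower genes, against 19.7% of all genes tested. A fit on the 7 libraries alone called 888 of 11450 genes (425 higher, 463 lower), and 1562 when the mouse was added as a block. The share of all genes called in the same fit is the background for the list counts below. Fold changes are given below as log2 values with 1 SE, as GW3965 over DMSO. Levels are given as CPM, with the SD over libraries where a mean is given. CPM are counts scaled to the library total multiplied by the library's TMM factor, the scaling used in the test. The factors were 1.14 to 1.168 in the 7 libraries.

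How many genes passed depended on single libraries, more so for the genes that fell. When each of the 7 libraries was left out in turn, 95 of the 306 genes passed every time, 69 of them higher and 26 lower. The count was 214, 125 and 122 without GW3965 replicates 1, 2 and 3, and 176, 155 and 175 without DMSO replicates 1, 2 and 3. The replicate number is the mouse, and with the mouse as a block 531 genes passed (245 higher, 286 lower), which include 298 of the 306. With library totals in place of TMM scaling the split was 129 higher and 228 lower, or 36.1% higher in place of 52.9%.

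The gene table held 10110399 to 13105331 counts in each of these 7 libraries. On the first principal component (37.6% of variance) both libraries of mouse 1 stood apart, at -18.5 (GW3965) and -15.2 (DMSO), from the other 5 libraries at 4.502 to 8.15. The second component (29.8%) separated the 3 GW3965 libraries, at -12.7 to -6.95, from the 4 DMSO libraries, at 3.21 to 10.9. With mouse 1 left out of all groups 56 genes passed (47 higher, 9 lower), all of them among the 306. That fit has fewer libraries, and no other mouse with treated libraries was left out of all groups. Whether the loss of calls is particular to mouse 1 was therefore not tested, here and where this fit is cited below. DMSO replicate 4 has no treated partner and is the single library of the 7 whose title lacks the word reanalyzed, and 343 genes passed without it (147 higher, 196 lower), 242 of them among the 306. Summed levels of 24 macrophage markers were 63250 to 67800 CPM after GW3965 and 63630 to 67460 CPM in DMSO cells, and none was at 0 in all 7 libraries. The summed levels of markers of other cells were 93.5 to 111 CPM (GW3965) and 124 to 140 CPM (DMSO) for 16 neutrophil and granulocyte precursor genes, of which 7 were tested. For 12 dendritic cell genes the sums were 281.4 to 298 CPM (GW3965) and 250 to 262.5 CPM (DMSO), without overlap. The higher sum was not shared by most members, since of 8 tested 3 had fold changes above 0 and 5 below, with a median of -0.11. Sums were at most 15.5 CPM for lists of lymphoid (B, T and NK), mast, erythroid and stromal cells, with the haemoglobin genes, Pax5, Fcer1a and Col1a2 at 0. Few of these genes had counts enough to be tested, and 0 of those passed. The numbers tested were 2 of 10 for B cells, 3 of 13 for T and NK cells and 1 of 8 for mast cells. They were 3 of 12 for stromal cells and 0 of 8 for erythroid cells. In bulk RNA, fewer cells of a type and less RNA per cell cannot be told apart.

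The receptors themselves were not changed to a degree that passed the test. Nr1h2, which encodes LXR beta, was at 77.8, 70.5 and 73.2 CPM after GW3965 and at 81.2, 80.0, 77.5 and 72.6 CPM in DMSO cells. Nr1h3, which encodes LXR alpha, was at 8.64, 8.04 and 8.62 CPM after GW3965 and at 7.38, 8.02, 9.95 and 7.88 CPM in DMSO cells. The groups overlapped for both genes. Per length, Nr1h2 averaged 37.2 ± 1.86 RPKM after GW3965 and 39.2 ± 2.52 RPKM in DMSO cells, and Nr1h3 averaged 4.40 ± 0.159 RPKM after GW3965 and 4.32 ± 0.536 RPKM in DMSO cells (SD, n = 3 and 4). The level of Nr1h3 is that of 1 transcript, the one with most counts. The partner gene Rxra was at 54.98, 44.9 and 43.8 CPM against 62.3, 55.1, 59.0 and 60.8 CPM, without overlap, a difference of -0.30 ± 0.11 (edgeR adjusted p = 0.152; 0.0286 in a fit on the 7 libraries alone). Of the 10 receptors, corepressors and coactivators tested, 0 passed with edgeR in either direction, and their median was 0.01. With the 7 libraries alone 3 of them were lower, as were 463 of all 11450 genes in that fit.

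Genes of cholesterol efflux were higher after GW3965. Of 30 genes listed as LXR targets of cholesterol efflux and transport, 25 passed the filter on low counts, 10 rose and 0 fell, and the median was 0.20 against -0.01 over all genes. Among all genes tested 1.35% rose and 1.20% fell. With the mouse as a block 13 rose and 1 fell, and with mouse 1 left out 5 rose. When single libraries were left out, 7 of the 10 passed each time, namely Abca1, Abcg1, Apoc2, Lpl, Mylip, Arl4c and Lpcat3.

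Abca1 (chr4:53030789-53159988), the transporter that loads cholesterol and phospholipid onto lipid-poor apolipoprotein A-I, was at 2285, 2327 and 2457 CPM after GW3965 and at 680.5, 674, 709.5 and 647 CPM in DMSO cells. Every treated library lay far above every untreated one, and the ratios within mice 1, 2 and 3 were 1.75, 1.79 and 1.79 on the log2 scale, with 0.1 CPM added to each level. The fold change was 1.80 ± 0.11 (edgeR adjusted p = 2.39e-09). Abcg1 (chr17:31057694-31117984), which exports cholesterol to mature HDL, was at 1356, 1278 and 1252 CPM after GW3965 and at 405, 387, 414 and 364.5 CPM in DMSO cells. It had the smallest p of all genes, with a fold change of 1.72 ± 0.07 (edgeR adjusted p = 6.13e-13). Per length the levels of both transporters were close, at 234 ± 7.47 RPKM for Abca1 and 227 ± 10.3 RPKM for Abcg1 after GW3965, against 67.2 ± 2.78 and 68.5 ± 4.29 RPKM in DMSO cells.

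**Figure D1:**
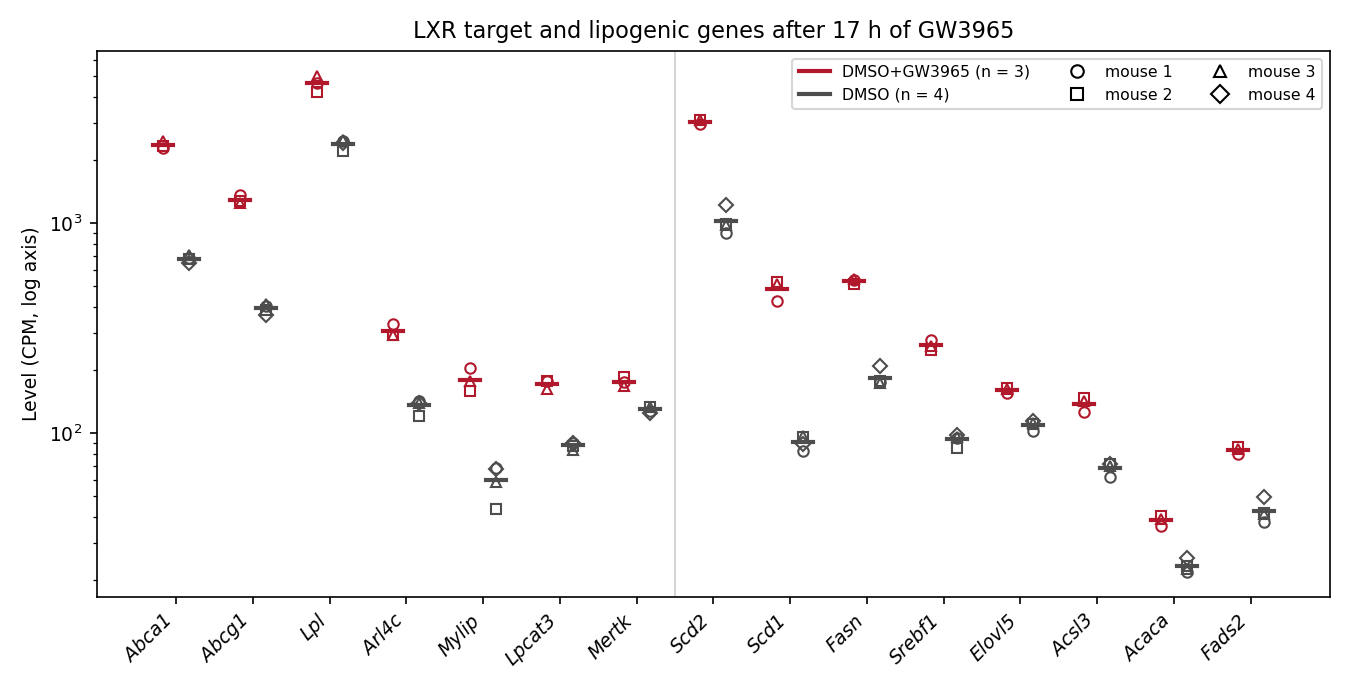
Levels in CPM on a log axis of 7 LXR targets (left of the grey line) and 8 genes of fatty acid synthesis (right of it), with 1 symbol per library, shaped by mouse, and a bar at the group mean; GW3965 libraries are red and DMSO libraries grey. Within each gene the red symbols lie above all grey ones, and Mylip varies most between DMSO libraries, from 43.4 to 68.2 CPM.

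Other called genes of the list act on lipoproteins and membranes. Mylip (chr13:45389742-45411940), also called Idol, encodes a ubiquitin ligase that acts on lipoprotein receptors. It was at 204, 159 and 177 CPM after GW3965 and at 68.2, 43.4, 58.8 and 67.9 CPM in DMSO cells, a change of 1.60 ± 0.12 (edgeR adjusted p = 1.28e-08). Mouse 2 was the lowest in both groups. Arl4c, a small GTPase, was at 330, 293 and 294 CPM against 143, 121, 139 and 139.9 CPM, a change of 1.17 ± 0.08 (edgeR adjusted p = 4.15e-09). Lpcat3, which places polyunsaturated fatty acids in phospholipids, rose by 0.98 ± 0.09 (edgeR adjusted p = 8.49e-07). Lpl, the secreted lipoprotein lipase, was at 4663, 4198 and 5050 CPM after GW3965 and at 2476, 2202, 2495 and 2401 CPM in DMSO cells. Its change was 0.95 ± 0.14 (edgeR adjusted p = 0.000494; 0.0529 with mouse 1 left out).

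Secreted proteins of this list differed in how firmly they were called. Apoc2, the cofactor of lipoprotein lipase, was at 14.5, 10.9 and 12.4 CPM after GW3965 and at 7.80, 6.497, 6.21 and 7.05 CPM in DMSO cells, a change of 0.88 ± 0.17 (edgeR adjusted p = 0.00456; 0.13 with mouse 1 left out). Apoc1 was at 1.61, 1.28 and 0.929 CPM after GW3965 and at 0.150 to 0.252 CPM in DMSO cells, and its call was lost when any of the 7 libraries was left out (adjusted p = 0.0541 to 0.109). Apoe, a major acceptor of macrophage cholesterol, was at 1035, 927 and 876 CPM after GW3965 and at 639, 542, 609 and 551 CPM in DMSO cells. The groups did not overlap, yet its difference of 0.69 ± 0.19 missed the threshold (edgeR adjusted p = 0.0594; 0.0229 with the mouse as a block; 1.71e-05 in a fit on the 7 libraries alone). Cd5l, a secreted inhibitor of macrophage apoptosis, rose by 0.38 ± 0.09 (edgeR adjusted p = 0.0353), a call lost without GW3965 replicate 1 or 3 or DMSO replicate 2, 3 or 4 (0.0544 to 0.151).

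Other listed genes of cholesterol handling did not pass in the fit without a block. With the block, Lipa (lysosomal acid lipase, 0.27, adjusted p = 0.0221) and Nceh1 (a cholesteryl ester hydrolase, 0.18, adjusted p = 0.0415) were higher and the transglutaminase Tgm2 was lower (-0.28, adjusted p = 0.0336). The lysosomal transporters Npc1 and Npc2 differed by 0.07 and 0.01, and neither passed (edgeR adjusted p = 0.475 and 0.954).

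Among genes outside the lists, those with the smallest p after GW3965 included further genes of sterol movement. Eepd1, reported as an LXR target that favours cholesterol efflux, was at 82.1, 76.5 and 75.3 CPM against 34.7, 32.6, 30.6 and 29.8 CPM in DMSO cells, a change of 1.29 ± 0.10 (edgeR adjusted p = 2.78e-08). Gramd1b, which moves cholesterol from the plasma membrane to the endoplasmic reticulum, rose by 0.80 ± 0.06 (edgeR adjusted p = 4.1e-08). Cluh, which binds mRNAs of mitochondrial proteins, was at 140.0, 133 and 136 CPM against 73.9, 79.3, 76.9 and 74.8 CPM, a change of 0.84 ± 0.05 (edgeR adjusted p = 2.02e-09). The groups were far apart for all 3 genes. The long noncoding RNA Mexis (chr4:53261356-53270232), a neighbour of Abca1 described in mouse macrophages as an amplifier of Abca1 expression, was at 3.75, 4.02 and 4.05 CPM after GW3965 and at 1.76, 1.19, 2.23 and 2.48 CPM in DMSO cells. It rose by 1.05 ± 0.23 (edgeR adjusted p = 0.0172), and the call was lost without GW3965 replicate 2 or 3 or DMSO replicate 1 or 2 (0.0508 to 0.0739).

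Fatty acid synthesis rose together with its regulator. Of 32 listed genes 28 were tested, 10 rose and 0 fell, with a median of 0.22, and the block gave the same numbers. Without the block 1.35% of all genes rose. When single libraries were left out, 9 of the 10 passed each time, all but Fads2. With mouse 1 left out 7 passed.

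Srebf1 was at 279, 250 and 261 CPM after GW3965 and at 95.4, 84.7, 96.2 and 98.4 CPM in DMSO cells. Its libraries were well separated, with within-mouse ratios of 1.55, 1.56 and 1.44, and its change was 1.49 ± 0.26 (edgeR adjusted p = 0.00199; 0.0608 with mouse 1 left out). The table does not tell the SREBP-1a and SREBP-1c starts apart. Fasn, the fatty acid synthase, was at 536, 515 and 540.3 CPM after GW3965 and at 175, 177, 173.5 and 209 CPM in DMSO cells, a change of 1.53 ± 0.24 (edgeR adjusted p = 0.000848). DMSO replicate 4 was the highest untreated library for Fasn and still far below all treated ones. Acaca, whose product acetyl-CoA carboxylase feeds the synthase, was at 36.1, 40.2 and 39.1 CPM against 21.9, 23.3, 22.7 and 25.4 CPM, a change of 0.72 ± 0.14 (edgeR adjusted p = 0.00476; 0.0603 with mouse 1 left out). Mid1ip1, which activates that carboxylase, rose by 0.70 ± 0.05 (edgeR adjusted p = 1.28e-08), though 25.5% of its exon length is shared with a gene on the opposite strand.

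Scd1 and Scd2 had the largest fold changes among the called genes of this list. Scd1, a stearoyl-CoA desaturase that makes oleate, was at 426, 526 and 512 CPM after GW3965 and at 82.5, 96.2, 96.8 and 88.6 CPM in DMSO cells. Its change of 2.42 ± 0.20 (edgeR adjusted p = 1.35e-07) held within each mouse, at 2.37, 2.45 and 2.40. Scd2, the paralog, was the more abundant per length, at 568.5 ± 14.9 RPKM against 190.1 ± 23.2 RPKM, while Scd1 averaged 102.5 ± 11.3 RPKM against 19.1 ± 1.28 RPKM. Scd2 was at 2958, 3105 and 3090 CPM against 902, 988, 983.5 and 1222 CPM, a change of 1.58 ± 0.20 (edgeR adjusted p = 7.53e-05). Reads of such close copies may have been split between them by the counting, which is not described in the sources used here.

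Further steps rose more modestly. The long-chain acyl-CoA synthetases Acsl3 and Acsl4 rose by 1.01 ± 0.12 and 1.02 ± 0.08 (edgeR adjusted p = 1.6e-05 and 2.23e-08). The elongase Elovl5 rose by 0.55 ± 0.06 (edgeR adjusted p = 1.23e-05). Fads2, the delta-6 desaturase, rose by 0.96 ± 0.25 (edgeR adjusted p = 0.0458), a call lost without any one of the libraries of mice 1 to 3 (0.0851 to 0.15). Acly and Acss2, which make cytosolic acetyl-CoA, differed by 0.04 and 0.00 and did not pass (edgeR adjusted p = 0.893 and 0.995).

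Cholesterol synthesis genes did not follow. Of 28 listed genes 27 were tested and 0 passed with edgeR in either direction, with or without the block, and the median was -0.05. A fit on the 7 libraries alone called 3 higher and 2 lower, against 425 higher and 463 lower of all 11450 genes in that fit. Srebf2, whose product SREBP-2 drives this pathway, was at 196, 193 and 196 CPM against 227, 223, 224.5 and 241 CPM. Its groups did not overlap, and the difference of -0.23 ± 0.09 did not pass (edgeR adjusted p = 0.186; 0.00541 in a fit on the 7 libraries alone).

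Genes of lipid storage gave fewer calls, with no change of 2-fold or more among them. Of 14 tested genes of lipid droplets and lipolysis, 3 rose and 0 fell (median 0.15), and with the block 4 rose and 1 fell. Over all genes 1.35% rose and 1.20% fell without the block, and 245 and 286 of 12013 with it. Plin2, the coat protein of lipid droplets, was at 912, 784 and 872 CPM after GW3965 and at 632, 550.4, 598 and 558 CPM in DMSO cells, a change of 0.55 ± 0.09 (edgeR adjusted p = 0.00128; 0.0609 with mouse 1 left out). The fatty acid carrier Fabp5 rose by 0.38 ± 0.07 (edgeR adjusted p = 0.0043; 0.0563 with mouse 1 left out). Cpt1a, which admits fatty acids to mitochondria for oxidation, rose by 0.29 ± 0.05 (edgeR adjusted p = 0.000855). The fatty acid receptor gene Cd36 was at 808, 713 and 843 CPM against 578, 514, 572 and 588 CPM. Its groups did not overlap, and the difference of 0.49 ± 0.20 did not pass (edgeR adjusted p = 0.228; 0.000174 in a fit on the 7 libraries alone). With the block the added calls were Fabp4, higher (0.32, adjusted p = 0.0209), and the lipase Mgll, lower (-0.53, adjusted p = 0.0298).

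**Figure D2:**
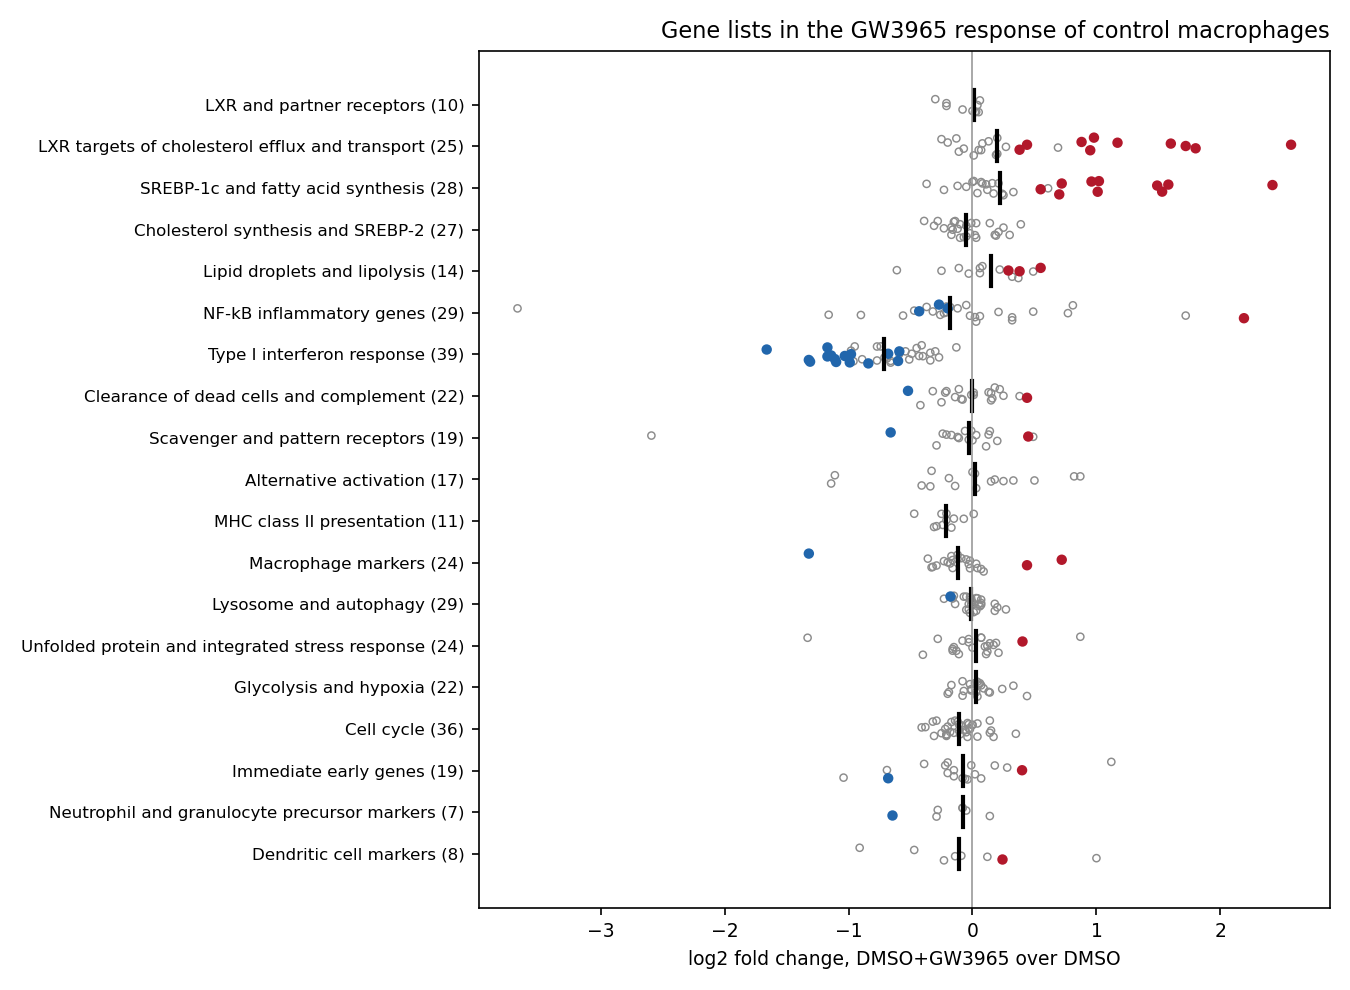
Log2 fold changes of GW3965 over DMSO for the tested members of 19 gene lists (the number tested in brackets), with members that rose in red, members that fell in blue, other members as open circles and the median as a black bar. Red points gather in the lists on cholesterol efflux and fatty acid synthesis, 10 in each, and blue points in the type I interferon list, 15.

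Interferon-stimulated genes were lower after GW3965. Of 40 listed genes of the type I interferon response 39 were tested, 15 fell and 0 rose, against 1.20% of all genes that fell. All 39 fold changes were below 0, with a median of -0.71 against -0.01 over all genes. With the mouse as a block 31 fell, with DESeq2 25 and without a filter on low counts 28, while limma-voom called 6 and counts summed over transcripts 10. Values of the groups did not overlap for 10 of the 39 genes, 9 of them among the 15 called, against 19.7% of all genes tested. The number called in this list depended strongly on single libraries. The number that fell was 1 without GW3965 replicate 2, 2 without GW3965 replicate 3, 6 without GW3965 replicate 1, 9 without DMSO replicate 1 and 4 without DMSO replicate 2. It was 33 without DMSO replicate 4 and 0 with mouse 1 left out, where the median was still -0.81.

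The untreated libraries differed among themselves in these genes. Relative to the mean of the DMSO libraries, the median of the 39 genes on the log2(CPM + 0.1) scale was -0.44, -0.95 and -0.59 in GW3965 mice 1, 2 and 3, and 0.10, 0.51, -0.13 and -0.50 in DMSO mice 1 to 4. DMSO mouse 2 was the highest of the 7 libraries in 35 of 39 genes, and DMSO mouse 4 was the lowest DMSO library in 33 and lay below the highest GW3965 library in 27. Within mice, where mouse 4 has no treated partner, 37, 39 and 35 of the genes were lower after GW3965 in mice 1, 2 and 3, with medians of -0.62, -1.47 and -0.48. The genes lower in all 3 mice numbered 34.

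**Figure D3:**
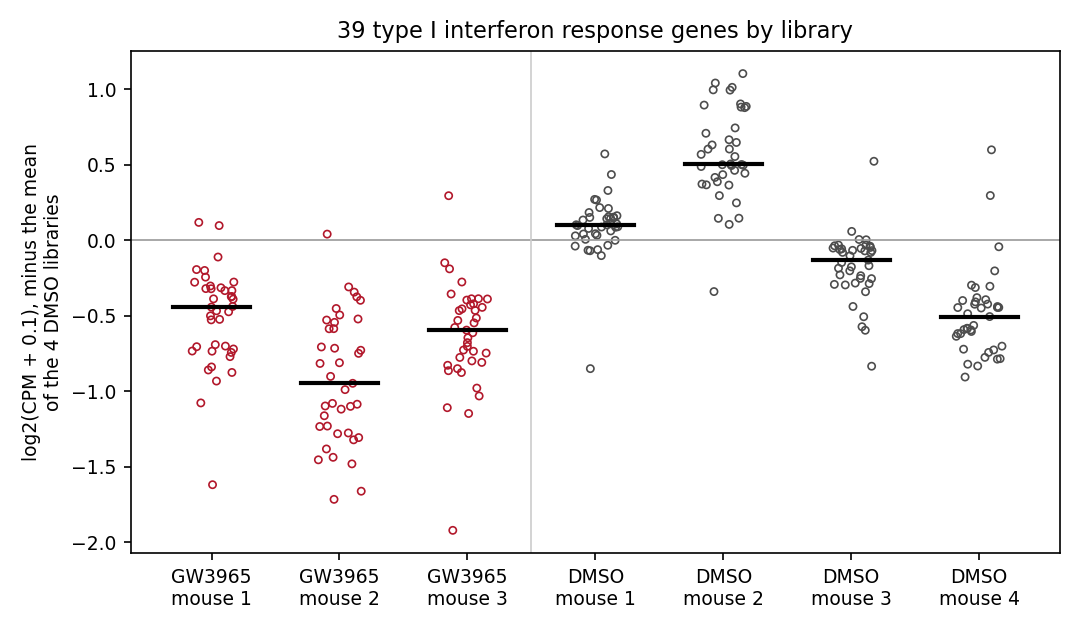
For each of the 7 libraries, 39 type I interferon response genes as log2(CPM + 0.1) minus the mean of the 4 DMSO libraries, with 1 circle per gene and a bar at the median. GW3965 libraries are red and lie at medians of -0.95 to -0.44, and DMSO libraries are grey, from 0.51 in mouse 2 down to -0.50 in mouse 4.

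Cxcl10, a chemokine for activated T cells, was the single member whose call held when each library was left out. It was at 3.15, 3.93 and 2.53 CPM after GW3965 and at 10.3, 10.9, 6.93 and 12.2 CPM in DMSO cells, without overlap. Its change was -1.66 ± 0.28 (edgeR adjusted p = 0.00144; 0.0938 with mouse 1 left out). Ifit1, which binds foreign RNA, was at 30.4, 21.4 and 25.2 CPM after GW3965 and at 56.1, 120.3, 45.6 and 31.6 CPM in DMSO cells. It changed by -1.31 ± 0.30 (edgeR adjusted p = 0.0194), and the call was lost without GW3965 replicate 2 or 3 (0.114 and 0.0988) and with limma-voom (0.0513). DMSO mouse 2 was far above the other untreated libraries, and DMSO mouse 4 lay just above GW3965 mouse 1.

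In the next genes, too, DMSO mouse 2 was the highest library and GW3965 mouse 2 the lowest. Cmpk2, a nucleotide kinase, was at 38.0, 27.2 and 33.3 CPM against 69.7, 125, 55.5 and 44.4 CPM (-1.17 ± 0.25, edgeR adjusted p = 0.0123; 0.0925 and 0.0624 without GW3965 replicates 2 and 3). Mx1, a dynamin-like GTPase, was at 14.1, 9.32 and 14.4 CPM against 27.5, 43.2, 21.6 and 17.0 CPM (-1.11 ± 0.23, edgeR adjusted p = 0.00886; 0.0811 without GW3965 replicate 2). The guanylate-binding protein gene Gbp3 and the oligoadenylate synthetase-like gene Oasl1 fell by 0.84 ± 0.19 and 1.32 ± 0.32 on the log2 scale (edgeR adjusted p = 0.0172 and 0.0281). Both calls were lost without GW3965 replicate 2 or 3 or DMSO replicate 2 (0.0561 to 0.149), and that of Oasl1 also with limma-voom (0.0713). Among the regulators of the pathway, Stat2 and Irf7 differed by -0.49 and -0.69 and passed with the block (adjusted p = 0.0127 and 0.0107), not without it (edgeR adjusted p = 0.0832 and 0.115).

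Siglec1 (sialoadhesin), a surface lectin of macrophages that is known to respond to interferon, was not in that list and held its call in every leave-one-out fit. It was at 97.7, 74.6 and 103 CPM after GW3965 and at 201, 198, 182 and 152 CPM in DMSO cells, a change of -0.99 ± 0.13 (edgeR adjusted p = 0.000141). Tnfsf10, which encodes the death ligand TRAIL, was at 1.61, 1.37 and 1.77 CPM against 3.61, 7.29, 3.98 and 3.00 CPM, a change of -1.52 ± 0.27 (edgeR adjusted p = 0.00218; 0.0618 with mouse 1 left out). For both genes all treated libraries lay below all untreated ones.

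Inflammatory genes of the NF-kB pathway went in both directions. Of 29 tested, 1 rose and 3 fell, with a median of -0.18, and with the block 2 rose and 2 fell. Without the block 1.35% of all genes rose and 1.20% fell. Il1a, a cytokine of the interleukin-1 family, was at 6.83, 5.81 and 6.00 CPM after GW3965 and at 1.59, 1.06, 1.04 and 1.80 CPM in DMSO cells, a rise of 2.19 ± 0.32 (edgeR adjusted p = 0.000327) that was among the largest of the response. It shares 11.2% of its exon length with a gene on the opposite strand. The genes that fell were the pattern receptor Tlr2 (-0.43 ± 0.10, edgeR adjusted p = 0.0296), the NF-kB subunit gene Nfkb1 (-0.20 ± 0.05, adjusted p = 0.0249) and the NF-kB inhibitor gene Nfkbia (-0.27 ± 0.07, adjusted p = 0.0458; 0.0603 with the block). None of the 3 calls held in all leave-one-out fits. Tlr2 was lost in each but that without DMSO replicate 1 (0.0517 to 0.154), Nfkb1 in each but those without DMSO replicate 3 or 4 (0.0624 to 0.113), and Nfkbia in all 7 (0.0591 to 0.223). The added call with the block was Tnfaip3, an inhibitor of NF-kB signalling, higher by 0.36 (adjusted p = 0.00429).

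Of the inflammatory genes given whatever their result, Tnf, Il1b, Il6, Nos2, Ptgs2 and Ccl2 did not pass. Tnf was at 6.90, 6.24 and 8.95 CPM after GW3965 and at 6.29, 7.03, 7.25 and 8.18 CPM in DMSO cells, with overlapping groups (0.03 ± 0.18, edgeR adjusted p = 0.962). Il1b stayed at 0.599 to 2.03 CPM after GW3965 and 0.995 to 1.51 CPM in DMSO cells (edgeR adjusted p = 0.881). Il6 had no counts after GW3965 and 0 to 0.225 CPM in DMSO cells. Nos2 was at 0.171 to 0.591 CPM against 0.663 to 1.09 CPM, without overlap (edgeR adjusted p = 0.442), and Ptgs2 at 0.760 to 1.27 CPM against 0.159 to 1.05 CPM (adjusted p = 0.414). Ccl2, a monocyte chemokine, was at 22.6, 28.5 and 41.8 CPM after GW3965 and at 15.5, 16.5, 18.6 and 21.8 CPM in DMSO cells. Its groups did not overlap, and the difference of 0.77 ± 0.28 did not pass (edgeR adjusted p = 0.158; 0.0144 in a fit on the 7 libraries alone).

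Of 24 macrophage identity genes 2 were higher and 1 lower, against 1.35% and 1.20% of all genes, with a median of -0.12. The fold change was below 0 for 18 of the 24. Groups did not overlap for 8 of them, against 19.7% of all genes tested. A fit on the 7 libraries alone called 2 higher and 5 lower, against 425 and 463 of all 11450 genes in that fit. Mertk, the receptor for dying cells, was at 174.5, 186 and 168 CPM against 128, 133, 134 and 125 CPM, a change of 0.44 ± 0.11 (edgeR adjusted p = 0.0396). Its groups did not overlap, but the call was lost whichever library was left out (0.0748 to 0.172). The fractalkine receptor gene Cx3cr1 was at 1.27, 1.03 and 1.35 CPM against 3.52, 2.25, 2.23 and 4.28 CPM, a change of -1.32 ± 0.29 (edgeR adjusted p = 0.0172), lost without any of the GW3965 replicates or DMSO replicate 1 (0.0508 to 0.0997). With the block Csf1r, the M-CSF receptor gene, was lower too (adjusted p = 0.0485).

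Receptors for lipoproteins and dead cells went both ways. The scavenger receptor gene Msr1 was at 252, 263 and 318 CPM after GW3965 and at 187, 195, 218 and 211 CPM in DMSO cells, a change of 0.45 ± 0.11 (edgeR adjusted p = 0.0263; 0.0582 to 0.193 without GW3965 replicate 2 or 3 or DMSO replicate 1 or 2). Cd163, the haptoglobin-haemoglobin receptor gene, was at 11.5, 12.2 and 12.1 CPM against 18.55 to 19.04 CPM (-0.66 ± 0.13, edgeR adjusted p = 0.00854; 0.133 with mouse 1 left out). Stab1, a clearance receptor, was at 527, 590.1 and 537 CPM against 797, 767, 742 and 863 CPM (-0.52 ± 0.10, edgeR adjusted p = 0.00384; 0.144 with mouse 1 left out). Msr1 and Cd163 were the calls among 19 scavenger and pattern receptors, and Mertk and Stab1 those among 22 genes of dead-cell clearance and complement. With the block the clearance list had 2 higher and 4 lower, among them the complement gene C1qa, lower by 0.45 (adjusted p = 0.00183).

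Other programmes gave few calls or none. In the alternative activation list 0 of 17 passed with edgeR (1 with the block, Mmp12, higher), in MHC class II presentation 0 of 11, in glycolysis and hypoxia 0 of 22 and in the cell cycle 0 of 36, with medians of 0.02, -0.21, 0.03 and -0.11. In a fit on the 7 libraries alone 3 genes of alternative activation were higher and 1 lower, 1 of glycolysis was higher and 4 of the cell cycle were lower. Over all 11450 genes that fit called 425 higher and 463 lower. Arg1, the arginase of alternative activation, was at or under 0.253 CPM in all libraries and was not tested, and Vegfa was at 86.5, 90.2 and 104.6 CPM against 86.2, 67.6, 81.7 and 63.8 CPM (0.33 ± 0.15, edgeR adjusted p = 0.261; 0.0487 in a fit on the 7 libraries alone). Atf3, a stress factor and the single call among 24 genes of the unfolded protein response, was higher (0.40 ± 0.09, edgeR adjusted p = 0.0275), and its call was lost without any single library other than DMSO replicate 4 (0.0538 to 0.137). Klf2, with Atf3 the calls among 19 immediate early genes and a factor that restrains macrophage activation, was lower (-0.68 ± 0.15, edgeR adjusted p = 0.0148), a call lost without GW3965 replicate 2 or 3 or DMSO replicate 2 (0.0541 to 0.0993). Of 29 lysosome genes 1 was lower, and with the block 0 were lower and Lipa was higher. Irf8, the single call of 8 dendritic cell markers and also a macrophage factor, was higher (0.24 ± 0.06, edgeR adjusted p = 0.0384), a call lost whichever library was left out (0.0561 to 0.16). The collagenase Mmp8, the single call of the neutrophil list, was at 18.3, 22.1 and 23.1 CPM against 30.6, 35.9, 36.2 and 29.0 CPM (-0.65 ± 0.10, edgeR adjusted p = 0.00117). The neutrophil granule gene Ngp differed by -0.28 and S100a8 by -0.05, and neither passed (edgeR adjusted p = 0.56 and 0.955). The part of the summed neutrophil markers in the fall of Mmp8 was not tested.

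Several of the strongest single falls lay outside the lists. Bmp2, a secreted morphogen, was at 0.871, 0.770 and 0.507 CPM after GW3965 and at 4.87, 3.58, 3.18 and 3.08 CPM in DMSO cells, a change of -2.32 ± 0.30 (edgeR adjusted p = 6.73e-05). Slco2b1, an organic anion transporter, was at 3.28, 4.28 and 3.80 CPM against 11.1, 8.35, 9.55 and 8.18 CPM (-1.30 ± 0.22, edgeR adjusted p = 0.00199; 0.0626 with mouse 1 left out). Both were separated in all libraries. Fam20c, a kinase of secreted proteins, was at 266, 260.1 and 232 CPM against 351, 342, 372 and 369.6 CPM (-0.50 ± 0.07, edgeR adjusted p = 0.000309). Il21r, Steap3 (an endosomal ferrireductase) and Stard8 fell by 0.65 ± 0.11, 0.59 ± 0.10 and 0.34 ± 0.06 on the log2 scale (edgeR adjusted p = 0.00119, 0.0017 and 0.00161; 0.0503 to 0.0529 with mouse 1 left out), and 1700037H04Rik by 0.47 ± 0.08 (adjusted p = 0.00166; 0.0563 with mouse 1 left out). Of the 20 genes lower by 2-fold or more, 9 were of the interferon list, and 4 passed in every leave-one-out fit, namely Bmp2, Slco2b1, Tnfsf10 and Cxcl10. The noncoding RNAs Rmrp and Rpph1 had the largest fitted falls, yet their groups overlapped, with Rpph1 at 0.134 to 0.427 CPM against 0.168 to 4.05 CPM.

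Of the 27 genes higher by 2-fold or more, 11 were of the lists on efflux and fatty acid synthesis, and 19 passed in every leave-one-out fit. Outside the lists these 27 held Dmpk, a protein kinase gene, at 5.22, 5.73 and 6.504 CPM after GW3965 against 2.18, 1.99, 2.07 and 2.78 CPM in DMSO cells (1.36 ± 0.19, edgeR adjusted p = 0.000199). They held Dusp6, a phosphatase of ERK kinases, at 26.9, 36.4 and 50.3 CPM against 14.2, 14.3, 17.2 and 16.4 CPM (1.28 ± 0.24, edgeR adjusted p = 0.00382; 0.0533 without GW3965 replicate 3). The treated libraries lay above the untreated ones for both. Ccdc148 was at 10.5, 11.8 and 8.78 CPM against 2.77, 2.52, 3.42 and 4.73 CPM (1.63 ± 0.24, edgeR adjusted p = 0.000326). Bach2os, antisense to Bach2 over 24.6% of its exon length, rose by 2.03 ± 0.25 (edgeR adjusted p = 4.64e-05). Mir5114 lies wholly within exons of Scd2 on the same strand, so its rise of 1.51 cannot be told apart from that of Scd2.

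The response of control cells was then set against that of cells grown with SGC0946. The arms share mouse numbers but no library. In SGC0946 cells 291 genes passed after GW3965 (158 higher, 133 lower), and 156 passed in both arms, which is 51.0% of the 306 and 53.6% of the 291, all with the same sign. The difference of responses, DMSO arm minus SGC0946 arm, passed for 0 of 12013 genes with edgeR (0.00%), and 291 genes had an unadjusted p under 0.05. DESeq2 and limma-voom also called 0, with 218 and 293 genes at an unadjusted p under 0.05. All 6 DMSO-arm libraries of mice 1 to 3 carry the word reanalyzed in their titles and none of the SGC0946 libraries does, so that word and the inhibitor cannot be told apart.

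Main targets had similar sizes in both arms. Abca1 rose by 1.80 in DMSO cells and 1.72 in SGC0946 cells, a difference of 0.08 ± 0.16, and Abcg1 by 1.72 and 1.70, a difference of 0.02 ± 0.10. Srebf1 rose by 1.49 in DMSO cells and 1.58 in SGC0946 cells, a difference of -0.09 ± 0.37. Fasn and Scd2 rose by 1.53 and 1.58 in DMSO cells, against 1.93 and 2.03 in SGC0946 cells, with differences of -0.40 ± 0.34 and -0.46 ± 0.29 that did not pass. The interferon list had a median of -0.71 with 15 lower in DMSO cells and -0.28 with 3 lower in SGC0946 cells. The median of the differences was -0.42, and no member's difference passed. Ifit1, for one, changed by -1.31 in DMSO cells and -0.46 in SGC0946 cells, a difference of -0.84 ± 0.41. Marcksl1, a regulator of actin, fell by 0.54 on the log2 scale in DMSO cells and differed by -0.18 in SGC0946 cells, a difference of -0.36 ± 0.11 that did not pass over all genes.

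**Figure D4:**
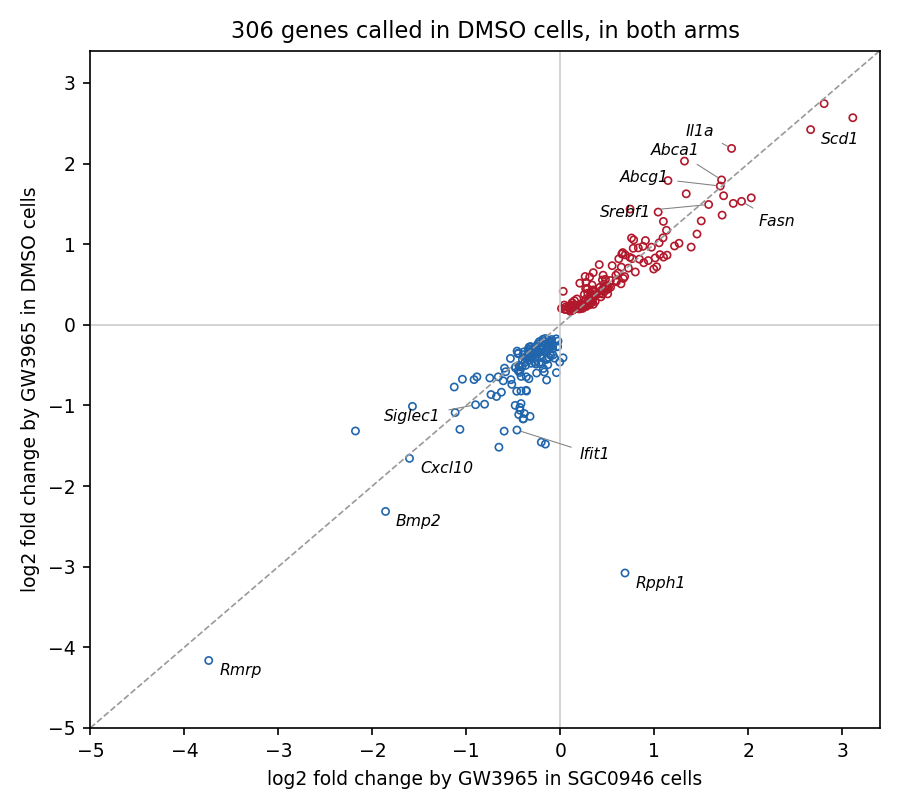
Log2 fold change by GW3965 in DMSO cells (vertical) against that in SGC0946 cells (horizontal) for the 306 genes that passed in DMSO cells, higher in red and lower in blue, with the line of equal change dashed. The genes were chosen by the vertical axis; 304 of the 306 have the same sign in both arms, and Rpph1 is one of the exceptions.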

How the data were processed

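Reads were 50 bases from 1 end. The submitters' processing notes name the build mm10 and the tools STAR 2.5.2b and SAMtools 1.3.1. How reads were assigned to transcripts, by which annotation and strand, is not stated in them. The authors deposited read counts per RefSeq transcript and a table of RPKM of the same 35745 transcripts, which were checked to be counts over length and library total (relative deviation of at most 3.52e-05 over 780 transcripts). A deposited sample sheet numbers the mice.

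Identifiers were joined to RefSeq symbols for GRCm38.p6, and 305 unnamed transcripts (1.17% of counts) were not tested. For each of 24342 symbols the transcript with most counts was kept, 57.4% of counts in all. The test was that of edgeR 4.0.16 (R 4.3.3; quasi-likelihood F test, all 20 libraries, 1 mean per group, TMM, filterByExpr with a count minimum of 10, Benjamini-Hochberg over 12013 genes). The SE is the absolute log2 fold change over the square root of F. The biological coefficient of variation was 8.87%. The fit was also run on simulated counts, drawn independently with 1 fixed spread and no difference between mice. That run cannot tell how the fit handles the differences between mice seen here. Alternatives used DESeq2 1.42.0, limma 3.58.1 (voom), other filters and scalings, single libraries left out, and the mouse as a block. Deviations from group means correlated between GW3965 and DMSO libraries of the same mouse (0.71, 0.28 and 0.35 in mice 1, 2 and 3). Libraries of unlike mice were not compared in this way, so these values cannot show the pairing, which is taken from the sample sheet.

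Genes named are the 10 of smallest p and the 5 of largest change per direction without overlap (changes with at least 5 CPM in the higher group), up to 4 called members per list and direction, and 24 fixed genes; those beyond this rule complete a list's calls or the 2-fold genes, or were added after their values were seen, as were the promoters of Fasn and Srebf1. Values of a few genes that the rule takes in are not reported here. The members and lists were chosen with earlier results of these data known. Of 91 genes checked, 8 share 10% or more of exon length with another gene. The labels name separate mice within each group, so p-values cover the spread between animals' cultures. Each GW3965 library shares its mouse with a DMSO library, and the main fit takes all libraries as independent. Its p-values therefore leave out this pairing, which the fits with the mouse as a block take in.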

Additional observations from a re-analysis of the deposited data

Results flagged for a closer look

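Fasn in DMSO replicate 4 was at 209.2 CPM, far from the 173.5, 174.8 and 176.6 CPM of the other 3 DMSO libraries; the gap was 0.913 of the group's range, above Dixon's limit for 4 values. Of 64 genes looked at, this was the single one so marked, and chance marks about 1 in 20. All GW3965 libraries (515 to 540.3 CPM) lay well above it, and without DMSO replicate 4 the fold change of Fasn was 1.60 on the log2 scale, against 1.53 with it.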

How the results depend on the processing

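The number of genes called, 306, was moved by more than 1.5 times by several settings. It was 520 with DESeq2, 888 in a fit on the groups compared alone and 531 with the replicate block. Settings added after seeing the data gave 1562 with the block on the compared groups alone, 574 with the block and mouse 4 left out, and 56 with mouse 1 left out of all groups, which also leaves fewer samples. Leaving out 1 library gave 122 to 343. The replicate block ended the calls of Nfkbia and Rmrp (adjusted p = 0.0603 and 0.0539) among genes described above; calls it added are given beside their lists. The difference between the arms had 0 calls under every setting run, the block included.

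Over 19 settings and 63 tested genes of the naming rule, 1051 of 1188 values kept direction and side of the threshold, 107 lost it, 20 gained it and 10 changed sign. The sign changes were of genes near 0. Nr1h3 was at -0.09 at equal depth, -0.03 without DMSO replicate 1, -0.00 without DMSO replicate 4 and -0.04 with mouse 1 left out, and ranged from -0.03 to 0.12 over the libraries left out. Tnf was at -0.03 at equal depth, -0.13 without GW3965 replicate 3 and -0.03 without DMSO replicate 1 (range -0.13 to 0.13). Il1b was at 0.05 without GW3965 replicate 1 or 2 and at 0.14 with mouse 1 left out, and ranged from -0.90 to 0.05 over the libraries left out. The cause was not tested. Of the 48 genes of the rule that were called, 22 kept their call under every setting. The number of libraries limits what small changes can be seen.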
